A study of Mus musculus with 14 samples.

Results

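The genes described here make, sense, take up and break down prostaglandins in the mouse duodenum. They are the phospholipase Pla2g4a, the cyclooxygenases Ptgs1 and Ptgs2, the prostaglandin E synthase Ptges, the receptors Ptger1 to Ptger4, the uptake transporter Slco2a1 and the degrading enzyme Hpgd. Members were chosen by name, as table entries that the platform annotation gives exactly 1 of these symbols. Of the 10 genes listed, 9 were found, each with 1 entry, among 19938 genes in all; Ptgs1 is not analysed here.

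Total RNA from the proximal duodenum was read on Affymetrix Mouse Gene 1.0 ST arrays, which carry many short probes along each transcript. The mice, 9 in all for 14 arrays, had a mixed 129S7/SvEv and C57/BL6 background, and the labels describe them as age matched without giving an age. The tumor group held duodenal tumors of 6 mice of genotype Lrig1-CreERT2/CreERT2 (Lrig1-/-), which carry CreERT2 at both Lrig1 alleles. The adjacent group held normal duodenum from beside the tumor in 5 of those 6 mice, so it carries the same alleles, and the wildtype group held duodenum of 3 mice with intact Lrig1. The labels call the normal tissue epithelium, yet 8 smooth muscle markers averaged 9.56 to 11.05 on the log2 scale in the 8 non-tumor arrays. Bulk RNA of this kind cannot tell fewer cells of a type from less RNA per cell.

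Prostaglandins are short-lived lipid signals. A cytosolic phospholipase frees arachidonic acid from membranes, a cyclooxygenase turns it into prostaglandin H2, and a terminal synthase converts that into prostaglandin E2, which acts through receptors of the EP family. A transporter then carries the prostaglandin into cells, where 15-hydroxyprostaglandin dehydrogenase inactivates it. In the intestine this pathway is known for its part in mucosal protection, in repair after injury and in the growth of adenomas.

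Lrig1, the gene the labels say was disrupted, averaged 9.03 ± 0.71 (SD, n = 3) in wildtype, 7.20 ± 0.17 (n = 5) in adjacent tissue and 8.07 ± 0.32 (n = 6) in tumors, as log2 signal. Tumors exceeded adjacent tissue of the same genotype in 5 of 5 pairs (0.88 ± 0.17, SE; limma adjusted p = 0.00102). They overlapped wildtype, since tumors 3 and 4 at 8.54 and 8.29 lay above wildtype replicate 3 at 8.22. Adjacent tissue lay 3.58-fold below wildtype with no overlap, at an adjusted p of 0.0511. Wildtype replicate 1 stood apart from the other wildtype arrays. Its mean over 7 gastric pit cell markers was 13.38, where tumors had 12.49 to 13.85 and the remaining wildtype arrays 6.74 and 7.26. Markers of pancreatic acinar cells averaged 13.46 to 14.19 in wildtype replicates 1 and 3 and adjacent replicates 1 and 2, and 7.31 to 7.56 in the other 4 non-tumor arrays. In tumors they averaged 7.48 to 10.09, with tumor 1 the highest. Results that rest on these arrays are given with and without them where the call changes.

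The first question was how the pathway differs between a tumor and the normal duodenum beside it. The enzymes at its entry, Pla2g4a and Ptgs2, were higher in all 5 matched pairs, by 3.40-fold and 4.43-fold. The degrading enzyme Hpgd was 1.62-fold lower. The terminal synthase Ptges and the receptors Ptger1 to Ptger4 did not pass the test, nor did the transporter Slco2a1. In limma with Benjamini-Hochberg adjustment over all genes, 2 of 9 members rose, against 19.1% of all genes, and 1 of 9 fell, against 12.6%. Calls in either direction covered 3 of 9 members and 31.7% of all genes, so the members' share was near that of the background. The median difference over the 9 members was 0.01, beside 0.043 over all genes. Groups did not overlap for 2 of 9 members and for 17.2% of all genes.

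**Figure D1:**
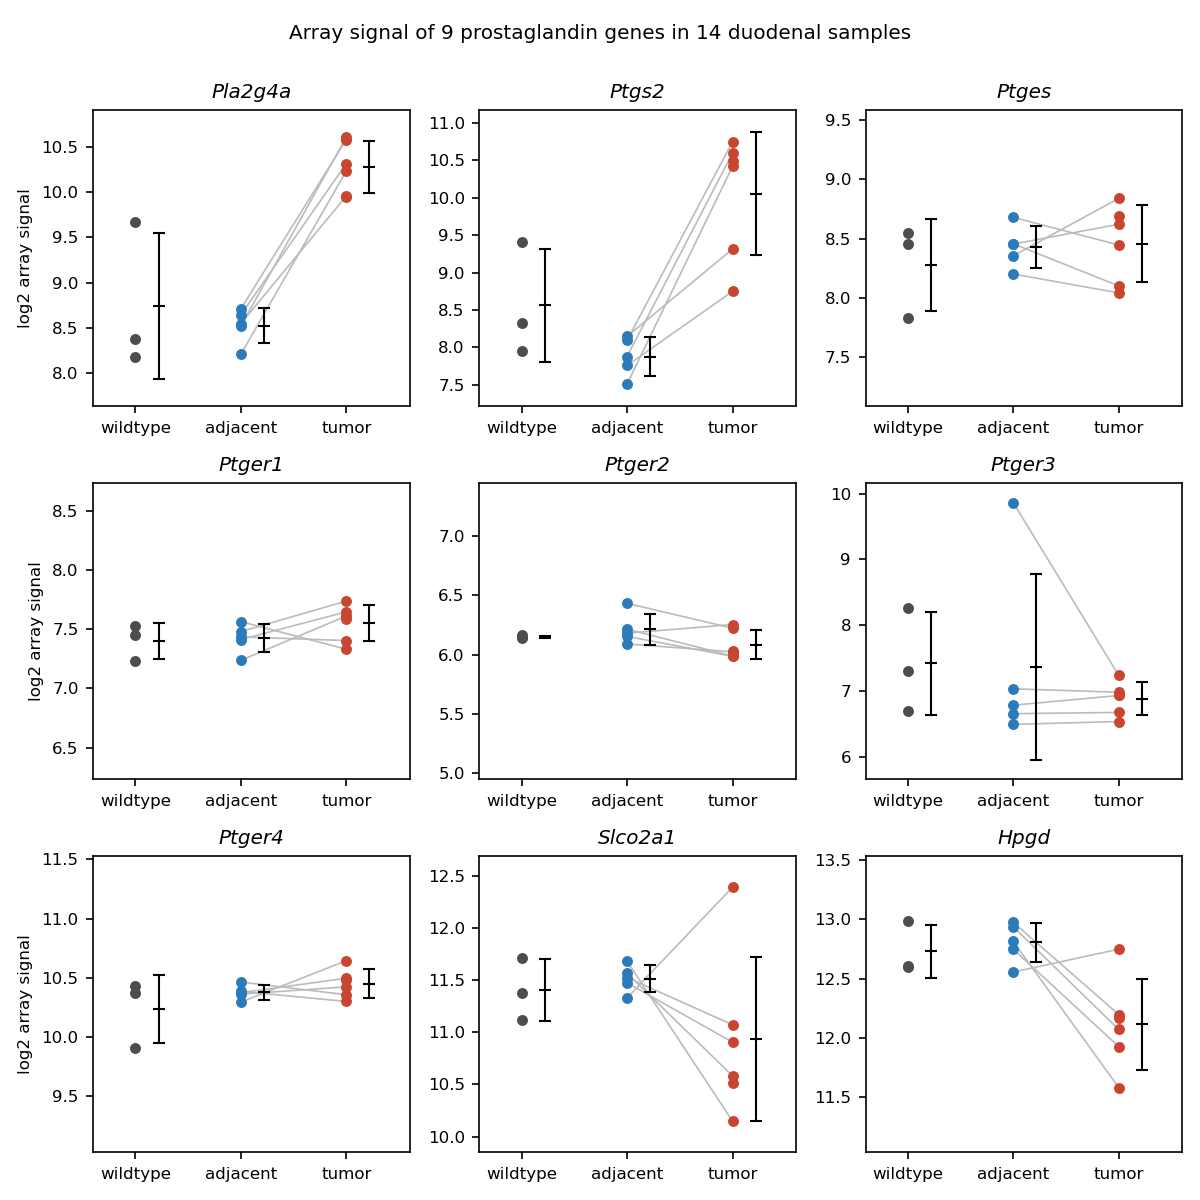
Log2 array signal (y axis, a log scale whose range differs between panels) of each gene in the 3 wildtype, 5 adjacent and 6 tumor arrays; points are arrays, grey lines join tissues of the same mouse, and bars are the mean ± SD. Pla2g4a and Ptgs2 rise along every grey line, Hpgd falls along 4 of 5, and the 4 receptor panels show adjacent and tumor points at overlapping levels.

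Pla2g4a encodes cytosolic phospholipase A2 alpha, which releases the arachidonic acid that cyclooxygenases use. Its log2 signal (transcript cluster 10358434) was 8.55, 8.21, 8.71, 8.52 and 8.65 in adjacent replicates 1 to 5. In the 6 tumors it ran from 9.95 through a median of 10.27 to 10.60. The lowest tumor lay above the highest adjacent sample, and the tumors were close to each other, with an SD of 0.29. The difference was 1.77 ± 0.19 (SE; 95% interval 1.37 to 2.16; limma adjusted p = 7.2e-06). Within the 5 matched mice the tumor exceeded its own adjacent tissue by 1.41 to 2.08. Gastric pit cell markers were higher in tumors too: 7 of 7 rose, from a mean of 6.19 to 8.40 in adjacent tissue to 12.49 to 13.85 in tumors. So did 7 of 11 mast cell, 6 of 9 neutrophil and 7 of 10 fibroblast markers. The part of any of these cells in the Pla2g4a difference was not tested.

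Ptgs2 encodes cyclooxygenase-2, the inducible enzyme that makes prostaglandin H2. Its log2 signal (transcript cluster 10350516) was 7.51, 7.76, 8.09, 8.15 and 7.88 in adjacent replicates 1 to 5. Tumors 1, 2, 4 and 6 were at 10.50, 10.42, 10.75 and 10.60, whereas tumors 3 and 5 were at 8.75 and 9.31. All 6 tumors lay above all 5 adjacent samples, but the tumors split into 4 high and 2 intermediate values. The difference was 2.15 ± 0.31 (SE; 95% interval 1.50 to 2.80; limma adjusted p = 8.52e-05). Within mice it was 2.91, 2.66 and 2.72 for tumors 2, 4 and 6 and 0.99 and 1.17 for tumors 3 and 5.

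Several marker lists also had tumors 3 and 5 at one end of the tumors, some at the low end and some at the high end. The split was taken from the Ptgs2 values, so these lists describe the tumors and do not test it. Of the 9 neutrophil markers 6 rose, 1 of them by 2-fold or more: Ltf, from a mean of 7.04 in adjacent tissue to 9.84 in tumors. The 9 averaged 6.51 and 6.43 in tumors 3 and 5 and 6.82 to 7.19 in the other 4, against 5.85 to 6.20 in adjacent tissue. The 11 mast cell markers, of which 7 rose, averaged 7.62 and 7.81 in tumors 3 and 5 and 8.13 to 8.38 in the other 4, against 6.14 to 6.91 in adjacent tissue. The gastric pit marker mean was highest in tumors 3 and 5 (13.85 and 13.50, against 12.49 to 12.90). Muc5ac varied most in that list, from 7.27 to 13.93 in tumors (SD 2.84), whereas the other pit markers had tumor SDs of 0.12 to 0.44. That mean is therefore no measure of pit cells as a whole. Smooth muscle markers were highest there too (10.92 and 11.08), with 8.60 to 10.67 in the other 4. Villus enterocyte markers were lowest there (10.72 and 11.10, against 11.20 to 11.31). Of 10 fibroblast markers 7 rose as well (8.70 to 9.22 against 8.31 to 8.66). Tumors 3 and 5, at 9.14 and 9.03, lay inside the fibroblast range of the other 4. Of 10 macrophage markers 1 rose, Cd14, and 6 fell. The macrophage mean was 8.02 and 7.97 in tumors 3 and 5, 8.18 to 8.31 in the other 4 and 8.17 to 8.71 in adjacent tissue. Neutrophils, mast cells, fibroblasts and macrophages can all express Ptgs2, and their part in its difference was not tested. No gene in these lists is listed at 0, since the deposited values run from 2.87 to 14.8 and carry no detection call.

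**Figure D2:**
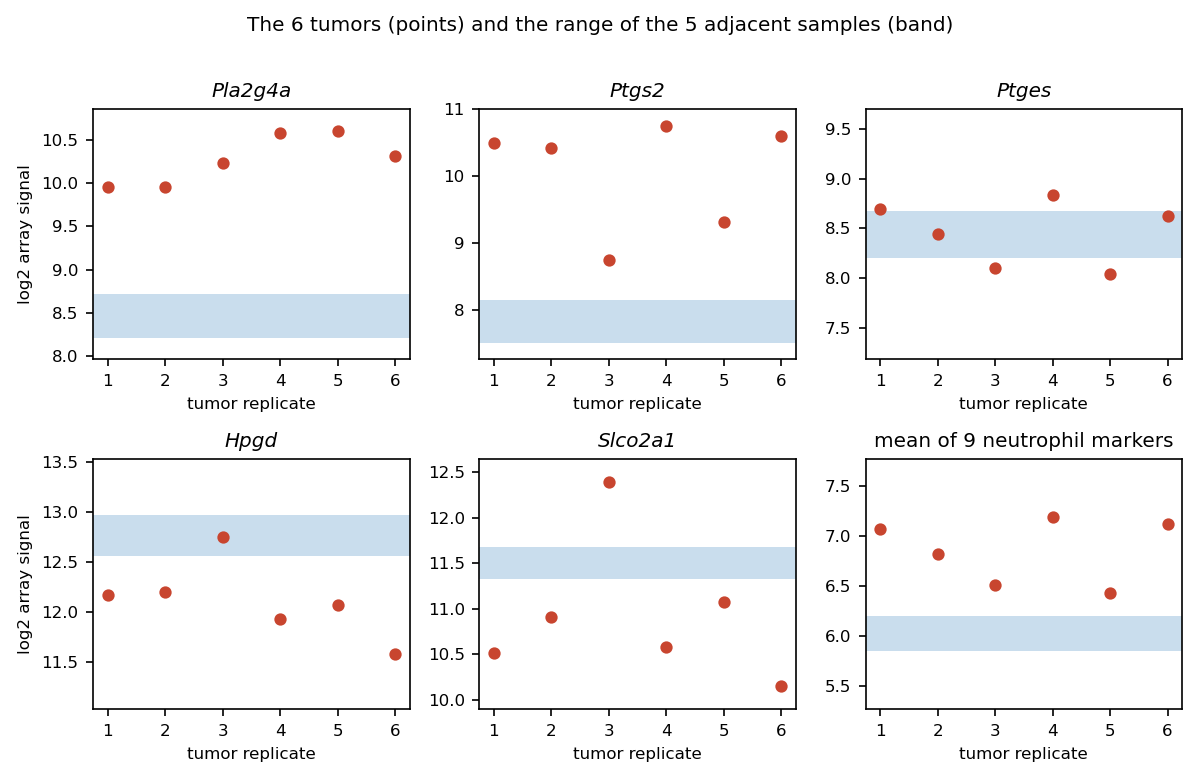
Log2 array signal (y axis) of 5 members and the mean of 9 neutrophil markers in each of the 6 tumors (x axis, red points), with the range of the 5 adjacent samples as a blue band. Tumors 3 and 5 have the lowest Ptgs2 (8.75 and 9.31), Ptges and neutrophil values, and tumor 3 alone has Slco2a1 above the band, at 12.39.

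Ptgs2 and Pla2g4a are neighbours in the genome, which is why the stretches before their starts are shown. In RefSeq's GRCm38.p6 annotation they lie head to head on chromosome 1, Ptgs2 on the plus strand and Pla2g4a on the minus strand, with starts 139 kb apart. The genes annotated between them are a pseudogene and the long noncoding RNA Ptgs2os, and 0 are protein-coding. The submitters' processing notes name mm9, a different build, so these coordinates hold for the RefSeq sequences alone. Capitals mark matches to 6 motifs searched on both strands: the cAMP response element core TGACG, the E-box CACGTG, the C/EBP motif TTGCNNAA, the AP-1 motif TGANTCA, the TATA box TATAAA and the GC box GGGCGG. The first sequence is the 250 bases before the Ptgs2 start (chr1:150099781-150100030, plus strand). The second is 30 bases just past that start (chr1:150100032-150100061, plus strand). The third is the 250 bases before the more upstream of the annotated Pla2g4a starts (chr1:149961291-149961540, minus strand).
Ptgs2 upstream: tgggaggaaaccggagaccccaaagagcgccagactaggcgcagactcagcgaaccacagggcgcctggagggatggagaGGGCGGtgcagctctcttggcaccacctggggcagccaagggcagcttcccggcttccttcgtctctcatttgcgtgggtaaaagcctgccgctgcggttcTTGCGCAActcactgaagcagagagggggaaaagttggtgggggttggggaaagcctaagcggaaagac
Ptgs2 past the start: gagtcaccactaCGTCACGTGgagtccgct
Pla2g4a upstream: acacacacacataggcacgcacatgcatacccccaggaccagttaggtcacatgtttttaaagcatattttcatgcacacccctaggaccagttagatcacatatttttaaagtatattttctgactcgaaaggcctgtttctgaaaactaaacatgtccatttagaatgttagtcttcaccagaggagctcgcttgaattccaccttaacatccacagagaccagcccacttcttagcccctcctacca
The Ptgs2 window holds a GC box beginning at position -170 and a C/EBP match beginning at -69, counted from the start annotated in RefSeq. Where transcription starts in these samples was not measured, so the positions hold for that annotated start alone. Past the annotated start the window holds the cAMP response element core, read on the other strand, beginning at 14, and an E-box beginning at 17 that overlaps it. Among all 32851 RefSeq windows of 300 bases (250 before and 50 after a start), 35.7% held a GC box, 20.8% the cAMP response element core, 10.8% the C/EBP motif and 7.15% the E-box. The AP-1 motif and the TATA box were in 7.81% and 13.6% of windows and in neither of the sequences shown. No motif searched matched the Pla2g4a sequence, which says only that these letters are not in that window. Of the 10 genes listed, 9 had an entry in the RefSeq promoter table.

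Ptges encodes the microsomal synthase that works with cyclooxygenase-2 to form prostaglandin E2. Its log2 signal (transcript cluster 10481518) lay between 8.20 and 8.68 in adjacent tissue and between 8.04 and 8.84 in tumors. The groups overlapped fully, with a difference of 0.01 ± 0.14 (SE; 95% interval -0.28 to 0.31; limma adjusted p = 0.966). A change as large as that of Ptgs2 lies outside this interval. Tumors 3 and 5, the lowest for Ptgs2, were also the lowest for Ptges, at 8.10 and 8.04.

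The receptors differ in the signal they pass on: Ptger2 and Ptger4 raise cyclic AMP, Ptger3 mainly lowers it, and Ptger1 acts through calcium. Ptger4 (transcript cluster 10427461) was 10.38 ± 0.06 (SD, n = 5) in adjacent tissue, 10.45 ± 0.12 (n = 6) in tumors and 10.24 ± 0.28 (n = 3) in wildtype. Ptger1 (10573210) was 7.43 ± 0.12, 7.55 ± 0.15 and 7.40 ± 0.15 in the same order, and Ptger2 (10414271) was 6.22 ± 0.13, 6.09 ± 0.12 and 6.15 ± 0.01. The probes of different genes are not calibrated against each other, so these levels give no order among receptors. Tumor minus adjacent differences were 0.07 ± 0.08 for Ptger4 (95% interval -0.11 to 0.25), 0.12 ± 0.08 for Ptger1 (-0.05 to 0.30) and -0.13 ± 0.07 for Ptger2 (-0.27 to 0.01). Limma adjusted p-values were 0.595, 0.303 and 0.174, and array weights called Ptger2 (-0.16, adjusted p = 0.0298). For each of these 3 receptors the interval leaves out a 2-fold change in either direction.

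The difference in Ptger3 (10497079) rested on a single adjacent sample. Adjacent replicate 2 was at 9.86, whereas the other 4 adjacent samples were at 6.49 to 7.03 and the 6 tumors at 6.53 to 7.24. The difference was -0.49 ± 0.41 (SE; limma adjusted p = 0.44), and without adjacent replicate 2 it was 0.10 (adjusted p = 0.763). Adjacent replicate 2 also had the highest acinar marker mean, 14.19. In the other 3 non-tumor arrays with high acinar markers, wildtype replicates 1 and 3 and adjacent replicate 1, Ptger3 was at 8.25, 7.30 and 7.03. In the 4 non-tumor arrays with low acinar markers Ptger3 was 6.49 to 6.78. The 6 tumors, with Ptger3 at 6.53 to 7.24, had acinar means of 7.48 to 10.09. The part of acinar tissue in these values was not tested.

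Slco2a1 encodes the prostaglandin transporter, which takes prostaglandins up from outside the cell. Its log2 signal (transcript cluster 10588263) was 11.33 to 11.68 in adjacent tissue. Tumors 1, 2, 4, 5 and 6 were at 10.51, 10.91, 10.58, 11.07 and 10.15, all below that range, and tumor 3 was at 12.39, above it. The difference was -0.55 ± 0.27 (SE; 95% interval -1.13 to 0.02; limma adjusted p = 0.142), lower in 4 of 5 pairs. Without tumor 3 it was -0.88 (adjusted p = 0.000398), without adjacent replicate 2 it was -0.74 (adjusted p = 0.0465), with array weights -0.63 (adjusted p = 0.0154), and within mice whose ID begins with B -0.99 (adjusted p = 0.00544). Endothelium, where Slco2a1 is also found, had 10 markers with a mean of 7.88 to 8.27 in adjacent tissue and 7.93 to 8.47 in tumors, of which 1 rose, Cdh5.

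Hpgd encodes 15-hydroxyprostaglandin dehydrogenase, the enzyme that begins prostaglandin breakdown. Its log2 signal (transcript cluster 10571840) was 12.56 to 12.97 in adjacent tissue. In tumors 1 to 6 it was 12.17, 12.20, 12.75, 11.93, 12.07 and 11.58. Tumor 3 lay within the adjacent range and the other 5 lay below it. The difference was -0.69 ± 0.15 (SE; 95% interval -1.01 to -0.37; limma adjusted p = 0.00223). It was lower in 4 of 5 pairs, by -1.23 to -0.78, and 0.19 higher in tumor 3 than in its own adjacent tissue. The call ended against the adjacent samples with acinar markers alone (-0.57, adjusted p = 0.185) and within mice whose ID begins with F (-0.37, adjusted p = 0.371). These are the same adjacent samples, replicates 1 and 2, so the settings are not separate checks. Villus enterocyte markers, of which 9 of 10 fell, averaged 12.94 to 13.69 in adjacent tissue and 10.72 to 11.31 in tumors. Enterocytes express Hpgd, and the part of these cells in its difference was not tested.

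The first letter of the mouse ID, F or B, has no meaning given in the labels and divides each group. Within letter F the mean of all tumors minus that of all adjacent samples was 2.26 for Ptgs2 and 1.67 for Pla2g4a. Within letter B it was 2.18 and 1.87. For Hpgd it was -0.39 within F and -0.97 within B, and for Slco2a1 -0.13 and -0.99. These means ignore the pairing, and those of F include tumor 1, which has no adjacent sample. In the matched F mice, those of tumors 2 and 3, Slco2a1 differed by -0.57 and 1.06. In the same mice Hpgd differed by -0.78 and 0.19, and Ptgs2 by 2.91 and 0.99. Limma's test of the difference between letters called 0 of 9 members and 0.0351% of all genes, with Hpgd at 0.61 ± 0.24 (SE; adjusted p = 0.362) and Slco2a1 at 0.97 ± 0.52 (adjusted p = 0.506). Neither is shown to differ between letters. In adjacent tissue the letter and the acinar markers cannot be told apart, since both F samples are rich in them and all B samples are poor.

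The second question was how tumors compare with duodenum of mice with intact Lrig1. Pla2g4a and Ptgs2 were again higher, by 2.89-fold and 2.82-fold, and Hpgd did not pass the test. In limma 2 of 9 members rose, against 9.65% of all genes, and 0 of 9 fell, against 4.48%. Calls in either direction covered 14.1% of all genes. Groups did not overlap for 1 of 9 members, Pla2g4a, and for 13.6% of all genes, and the median difference over the members was 0.15, beside -0.002 over all genes. These tests rest on 3 wildtype mice and share the tumors with the first comparison.

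Pla2g4a was at 9.67, 8.38 and 8.18 in wildtype replicates 1 to 3, all below the lowest tumor at 9.95. The difference was 1.53 ± 0.26 (SE; 95% interval 0.97 to 2.09; limma adjusted p = 0.00212). Without wildtype replicate 1, the array with gastric pit markers, it was 1.99 ± 0.18 (adjusted p = 1.05e-05). The call ended against the wildtype replicates with acinar markers alone (1.35, adjusted p = 0.0629) and within letter F, which has 1 wildtype array (0.38, adjusted p = 0.721).

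Ptgs2 was at 9.40, 8.33 and 7.95 in the same wildtype replicates. Wildtype replicate 1 exceeded tumors 3 and 5, so the groups overlapped, and the difference was 1.49 ± 0.43 (SE; 95% interval 0.57 to 2.42; limma adjusted p = 0.0319). Without wildtype replicate 1 it was 1.92 ± 0.45 (adjusted p = 0.00802). The call ended when wildtype replicate 2 (1.38, adjusted p = 0.148), wildtype replicate 3 (1.19, adjusted p = 0.186) or any of tumors 1, 2 and 4 (adjusted p = 0.0573, 0.0571 and 0.0603) was left out. It also ended with only these groups in the fit (adjusted p = 0.0751), against the wildtype replicates with acinar markers (1.38, adjusted p = 0.224), against the wildtype replicate without them (1.73, adjusted p = 0.118) and within letter F (0.48, adjusted p = 0.89).

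Hpgd was at 12.99, 12.60 and 12.60 in wildtype, and tumors lay lower by -0.61 ± 0.21 (SE; 95% interval -1.06 to -0.16; limma adjusted p = 0.068). Without tumor 3, the tumor within the normal range, the difference was -0.76 (adjusted p = 0.00658), and the call was made in 7 alternatives in all. The others were no mouse block (adjusted p = 0.0453), quantile normalization (0.0409), array weights (0.00423), dim genes left out (0.0438), letter B alone (0.0106) and adjacent replicate 2 left out (0.0472). Slco2a1 differed by -0.47 ± 0.38 (adjusted p = 0.497), by -0.77 without tumor 3 (adjusted p = 0.0267) and by -0.75 with array weights (adjusted p = 0.0126). Ptges differed by 0.18 ± 0.20 (adjusted p = 0.634) and the receptors by -0.54 for Ptger3 to 0.21 for Ptger4, with adjusted p from 0.274 to 0.72. Array weights, which count arrays far from their group for less, called Ptger4 (0.53, adjusted p = 0.000307) and Ptger1 (0.27, adjusted p = 0.015). Ptger4 was also called against the wildtype replicate without acinar markers (0.54, adjusted p = 0.0386).

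The remaining question was whether the pathway differs in normal Lrig1-null tissue from wildtype. None of the 9 members was called, and limma called 0% of all genes. At an unadjusted limma p of 0.05, 0 of 9 members and 559 genes passed, the latter 2.8% of all genes. Ptgs2 was -0.65 ± 0.44 in adjacent tissue relative to wildtype (SE; 95% interval -1.60 to 0.29) and Pla2g4a -0.24 ± 0.27 (-0.81 to 0.34), each with an adjusted p of 0.998. Both rested on wildtype replicate 1: without it Ptgs2 was -0.24 (adjusted p = 0.863) and Pla2g4a turned to 0.23 (adjusted p = 0.665). Over all alternatives Ptgs2 ran from -1.71 to -0.10 and Pla2g4a from -1.30 to 0.35, with no call. The other 7 members differed by -0.05 for Ptger3 to 0.17 for Ptges. With array weights Ptger4 was called (0.43, adjusted p = 0.0129), as were 1691 genes. Groups did not overlap for 0 of 9 members and 2.12% of all genes. The interval of Ptgs2 does not leave out a 2-fold lower level, nor that of Ptger3 a 2-fold difference in either direction.

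**Figure D3:**
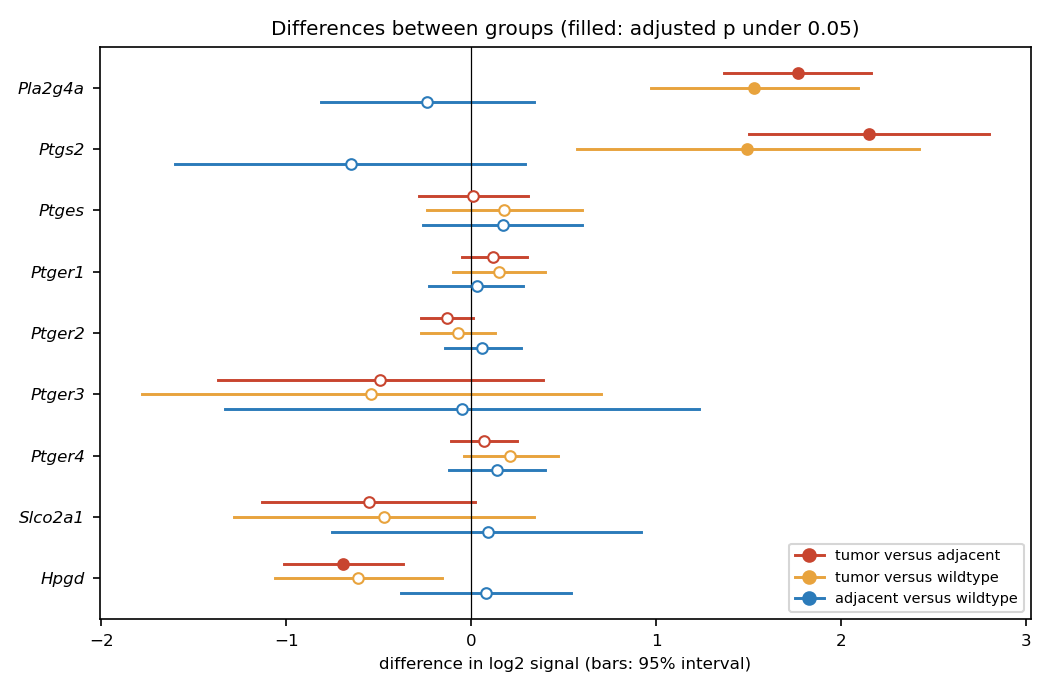
Difference in log2 signal (x axis) of the 9 members in the 3 comparisons; points are fitted differences, bars their 95% intervals, and filled points have a limma adjusted p under 0.05. Filled points appear for Pla2g4a (1.77 and 1.53) and Ptgs2 (2.15 and 1.49) in both tumor comparisons and for Hpgd (-0.69) against adjacent tissue, and none in adjacent tissue versus wildtype.

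The genes whose profiles over the 14 arrays came closest to that of Ptgs2 were Inhba, Ddah1 and Slc4a11, with root-mean-square differences of 0.29, 0.31 and 0.32 log2 units after centring, where the median gene differed by 1.16. Inhba encodes a subunit of activins. Its signal was 7.18 to 7.27 in adjacent tissue, and tumors 3 and 5 were its lowest tumors, at 7.87 and 8.71 against 9.21 to 9.84 in the other 4. For Pla2g4a the nearest were Galnt3, Golm1 and Lrrc26, at 0.15, 0.18 and 0.18, where the median gene differed by 0.92. Galnt3, an enzyme that starts mucin-type sugar chains, reached at most 9.17 in adjacent tissue and ran from 10.62 to 11.30 in tumors. All of these genes were picked for closeness over these same arrays. Their sharing of the member's pattern, and differences below those of the median gene, follow from that choice.

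Other phospholipases A2, which also release fatty acids from membranes, moved in both directions. Of 17 measured, 5 rose (29.4%, against 19.1% of all genes) and 3 fell (17.6%, against 12.6%) in tumors relative to adjacent tissue, with a median of 0.03. Pla2g4c, a further cytosolic form, had the largest difference, 4.27 ± 1.00 (SE; limma adjusted p = 0.00413). It was uneven: tumors ran from 7.81 in tumor 3 to 13.42 in tumor 4, adjacent samples from 5.98 to 8.57, and wildtype replicates 1 to 3 were at 13.69, 6.83 and 6.65. Its call ended against the adjacent samples with acinar markers (3.45, adjusted p = 0.219) and within letter F (2.44, adjusted p = 0.165). Against wildtype it was 2.06 (adjusted p = 0.404), and 4.38 without wildtype replicate 1 (adjusted p = 0.0117). The secreted forms Pla2g10 and Pla2g2e rose by 1.81 ± 0.33 (adjusted p = 0.000677) and 1.13 ± 0.16 (adjusted p = 7.87e-05). Pla2g12b, which serves lipoprotein export, changed by -1.20 ± 0.15 (adjusted p = 2.71e-05). These 3 missed the threshold within letter F (2.03, 1.02 and -0.74; adjusted p = 0.0559, 0.0744 and 0.0506). Against wildtype Pla2g10 did not pass (1.07, adjusted p = 0.157), and wildtype replicate 1, at 10.38, lay within the tumor range of 9.38 to 11.32. Pla2g2e passed against wildtype (0.74, adjusted p = 0.0402), a call that ended with only these groups in the fit (adjusted p = 0.0827). Pla2g12b was again lower (-1.08, adjusted p = 0.00417).

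Among 12 other prostanoid synthases and reductases 3 rose (25%, against 19.1% of all genes) and 4 fell (33.3%, against 12.6%), with a median of -0.15. The aldo-keto reductase Akr1b8 rose from 8.82 ± 0.71 (SD, n = 5) to 11.59 ± 0.27 (n = 6), a difference of 2.76 ± 0.40 (SE; limma adjusted p = 0.000106). Prxl2b, a prostaglandin F synthase, changed by -1.87 ± 0.20 (adjusted p = 9.69e-06), from 10.16 ± 0.33 to 8.32 ± 0.30. Cbr1, a carbonyl reductase that can act on prostaglandin E2, changed by -0.65 ± 0.10 (adjusted p = 0.000144). Ptgr1, which reduces the 15-keto products of Hpgd, rose by 0.64 ± 0.17 (adjusted p = 0.0103). The call of Cbr1 ended against the adjacent samples with acinar markers alone (-0.47, adjusted p = 0.0834) and within letter F (-0.55, adjusted p = 0.0519). That of Ptgr1 ended there too (0.67, adjusted p = 0.14, and 0.85, adjusted p = 0.109) and within letter B (0.43, adjusted p = 0.111). Against wildtype 1 of 12 rose, Akr1b8 (2.35, adjusted p = 0.0139), and 2 fell, Prxl2b (-1.32, adjusted p = 0.00849) and Cbr1 (-0.52, adjusted p = 0.0214). These calls against wildtype ended without wildtype replicate 2 (adjusted p = 0.105, 0.0713 and 0.105) or 3 (adjusted p = 0.0739, 0.0686 and 0.14). They also ended against the wildtype replicates with acinar markers (1.50, -1.07 and -0.50, adjusted p = 0.0976, 0.114 and 0.144). Within letter F, which has a single wildtype array, the differences were 0.52, -0.31 and -0.36.

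Of 6 genes for other prostanoid receptors and export, 1 rose (16.7%, against 19.1% of all genes) and 0 fell, with a median of 0.07. The gene was Abcc4, an exporter that can carry prostaglandin E2 out of cells, at 7.57 ± 0.15 (SD, n = 5) in adjacent tissue and 8.54 ± 0.42 (n = 6) in tumors. Its difference was 0.99 ± 0.15 (SE; limma adjusted p = 0.000138), and 1.09 against wildtype (adjusted p = 0.00405). The latter call ended against the wildtype replicates with acinar markers (1.04, adjusted p = 0.07) and within letter F (0.76, adjusted p = 0.577). No tumor reached down to the adjacent range, with 8.06 as the lowest tumor and 7.71 as the highest adjacent sample.

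The leukotriene and lipoxygenase branch, which draws on the same arachidonic acid, was mixed: 2 of 13 genes rose (15.4%, against 19.1% of all genes), 4 fell (30.8%, against 12.6%), and the median was -0.02. Alox5ap, which presents arachidonic acid to 5-lipoxygenase, rose by 1.20 ± 0.33 (SE; limma adjusted p = 0.012). Genes further along changed downward: Lta4h, which makes leukotriene B4, by -0.81 ± 0.13 (adjusted p = 0.00024), its receptor Ltb4r1 by -0.87 ± 0.06 (adjusted p = 3.79e-07) and the cysteinyl leukotriene receptor Cysltr2 by -0.58 ± 0.11 (adjusted p = 0.00124). Against the adjacent samples with acinar markers alone Alox5ap (0.97, adjusted p = 0.309) and Lta4h (-0.59, adjusted p = 0.0532) did not pass, and within letter F Lta4h (-0.48, adjusted p = 0.147) and Cysltr2 (-0.62, adjusted p = 0.0773) did not. Against wildtype Ltb4r1 was again lower (-0.72, adjusted p = 0.000222, and -0.66 within letter F, which has a single wildtype array). Lta4h and Cysltr2 were lower at adjusted p = 0.0468 and 0.0482, calls that ended without wildtype replicate 2 (-0.40 and -0.35, adjusted p = 0.299 and 0.306) and without several other single arrays. Alox5ap did not pass against wildtype (0.46, adjusted p = 0.607), and it did without wildtype replicate 1 (1.19, adjusted p = 0.0418).

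Genes known to respond to cyclic AMP, the messenger that Ptger2 and Ptger4 raise, were raised in 5 of 11 cases (45.5%, against 19.1% of all genes) and lowered in 2 (18.2%, against 12.6%), and their median was 0.35 beside 0.043 over all genes. Many of them answer to other signals too. The nuclear receptors Nr4a1 and Nr4a2 rose by 1.14 ± 0.19 (SE; limma adjusted p = 0.000301) and 1.09 ± 0.24 (adjusted p = 0.00274), and the transcription factor Fosb by 1.02 ± 0.21 (adjusted p = 0.00184). The clock gene Per1 changed by -0.70 ± 0.25 (adjusted p = 0.0486), a call lost in most alternatives, among them without the mouse block (adjusted p = 0.115). Nr4a2 did not pass against the adjacent samples with acinar markers (0.81, adjusted p = 0.187) or within letter F (0.62, adjusted p = 0.22). Against wildtype 2 of the 11 rose (18.2%, against 9.65% of all genes) and 0 fell (against 4.48%). They were Nr4a3 and Pde4d. Nr4a1 missed that threshold (0.83, adjusted p = 0.0515). Without wildtype replicate 1, Nr4a1 (1.36, adjusted p = 5.62e-06), Nr4a2 (1.26, adjusted p = 0.00476) and Fosb (adjusted p = 0.00482) passed. Within letter F, tumor versus adjacent called 1 of 17 phospholipases, 3 of 12 synthases or reductases and 1 of 6 receptor or export genes. It also called 2 of 13 leukotriene genes and 4 of 11 cyclic AMP genes, beside 1719 of all 19938 genes. No list had a call in adjacent tissue versus wildtype.

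**Figure D4:**
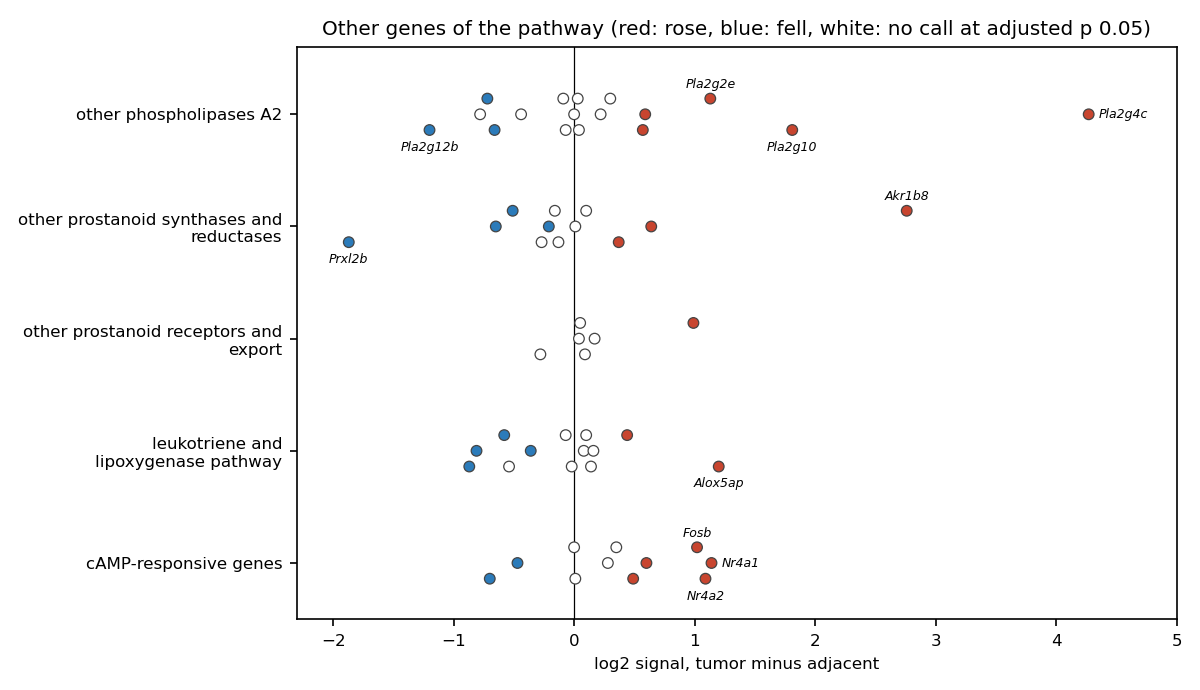
Tumor minus adjacent difference in log2 signal (x axis) of the genes in 5 pathway lists (rows); each point is a gene, red where it rose, blue where it fell and white where the limma adjusted p was not under 0.05, with names at differences of 1 or more. Points lie on both sides of 0 in every list, and Pla2g4c (4.27), Akr1b8 (2.76) and Prxl2b (-1.87) lie farthest out.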

How the data were processed

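Log2 array signal for 35556 transcript clusters by 14 arrays was deposited by the authors; the log2 unit was read from the values. Per the submitters' processing notes, Affymetrix Expression Console 1.1 and mm9 are named. How background was corrected and arrays normalized is not given in the sources used here. Medians of the arrays were 7.11 to 7.29, and nothing was rescaled. The number of arrays limits the precision.

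The platform annotation gave a single symbol to 21789 clusters, several to 1621 and none to 12146; of the first, 21698 were updated by gene identifier from RefSeq (GRCm38.p6, names only) and 91 kept theirs. The brightest cluster stood for each of 999 genes with several, leaving 19938.

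Group means were fitted in limma 3.58.1 (R 4.3.3) over all 14 arrays, with mouse as a random replicate block (correlation 0.334), two-sided tests and Benjamini-Hochberg adjustment over all genes at 0.05. The script was tested on simulated data. Tumor and adjacent tissue are paired by the mouse in the labels. Deviations from group means correlated at 0.221 to 0.395 in 4 pairs and at -0.0299 in the pair of tumor 5. Each array of a group is another mouse. The p-values rest on a spread shared by all 14 arrays and on a single mouse correlation. For tumor versus adjacent they therefore mix the spread within mice and between mice.

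The members and lists were chosen with earlier results of these data known. Named were all members, Lrig1, up to 4 called genes of largest difference per pathway list, and the 3 genes nearest in profile to each member past 2-fold. Nr4a3, Pde4d, Cd14, Cdh5 and Avil, which make up small counts, were named after their values were seen. So were Muc5ac, Ltf, Crem and Pde4b. Genes of the lists without an entry were Akr1b3, Pla2g4b, Ltb4r2, Areg, Amy2a5 and Pnlip. Alternatives covered normalization, the block, array weights, dim genes, acinar-rich or acinar-poor arrays, ID letters and each array left out.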

Additional observations from a re-analysis of the deposited data

Results flagged for a closer look

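Ptger3 in adjacent replicate 2 stood apart from the other adjacent samples, at 9.86 against 6.49 to 7.03 in the other 4. Its gap to the nearest sample was 0.84 of the whole range. Adjacent and tumor values of the 9 members gave 18 groups to examine, of which this was the 1 that stood out, and chance alone gives about 5% of groups. The same array had an acinar marker mean of 14.19, and the part of acinar tissue was not tested.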

How the results depend on the processing

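Of 702 recomputed member values (27 results), 671 kept their side of the threshold, 13 lost a call, 18 gained one and 0 called values reversed; 52 values uncalled on both sides changed sign. Ptgs2 and Pla2g4a in tumor versus adjacent were called in every alternative run (2.01 to 2.41 and 1.64 to 1.87), as with mouse as a fixed replicate block over the 5 matched mice (2.09 ± 0.31 and 1.81 ± 0.11). Array weights called 5 of 9 members in tumor versus adjacent, 6 in tumor versus wildtype and 1 in adjacent versus wildtype. Of all 19938 genes they called 7974, 9525 and 1691 in the same order. Tumor versus wildtype had 1 member with its 2 groups alone, and 0 in acinar-rich arrays and within letter F, where 504 and 14 genes passed; against adjacent tissue these gave 2181 and 1719 genes. Adjacent versus wildtype had 1 gene with quantile normalization, with a trended robust prior and with dim genes left out, and 73 within letter F. The letter difference had 7 genes, and 2 without the replicate block. Leaving out 1 array, tumor versus adjacent gave 5232 to 6475 genes and 3 to 4 members. Tumor versus wildtype gave 940 (without wildtype replicate 2) to 4526 genes (without wildtype replicate 1) and 1 to 4 members. Adjacent versus wildtype gave 0 to 1 genes and 0 members, and the letter difference 2 to 261 genes (without adjacent replicate 1). Causes were not tested. The alternatives for list counts and named list genes were added after seeing the data.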

Other observations

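Several pathway genes stood apart in wildtype replicate 1. Pla2g4c was at 13.69 there, above all 6 tumors, and at 6.83 and 6.65 in the other wildtype arrays. Alox5ap was at 10.52 against 8.31 and 8.34, Nr4a1 at 8.80 against 7.26 and 7.12, and Akr1b8 at 11.17 against 7.53 and 9.01; the lowest tumor had Akr1b8 at 11.27. Prxl2b, lower in tumors, was at 8.67 there against 10.13 and 10.11. The mean of 10 tuft cell markers, a cell type that makes prostaglandins, was 7.55 to 7.93 in adjacent tissue, 7.69 to 8.08 in tumors and 7.69 to 8.66 in wildtype, and 1 of the 10, Avil, rose.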
